A study of Mus musculus with 12 samples.

Results

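DNA methylation of primordial germ cell-like cells induced from female embryonic stem cells (ESC-PGCLCs) was compared with that of primordial germ cells taken from embryos at day 12.5 (E12.5 PGCs). The 2 libraries of each group were used, 4 of the 12 libraries in the series, together with every annotated feature that had a methylation level in all 4. This gave 138860 of the 176831 features of the series. Each feature belonged to 1 of 8 classes that overlap in the genome: the parts of genes (promoters, exons, introns and the untranslated regions, UTRs, at either end), CpG islands with their flanking shores, and repeat elements.

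All cells carried the C57BL6 strain label. ESC-PGCLCs came from a Female ES cell line that was held with bFGF and Activin A for 2 days to form epiblast-like cells, and then with BMP4, SCF, EGF and mLif for 4 days. According to the study's methods, PGCLCs were recognised as cells positive for both SSEA1 and CD61, and the embryonic PGCs were sorted from the gonads of female embryos with antibodies to the same surface proteins or to SSEA1 alone. The labels do not say whether the 2 libraries of a group came from separate cultures or separate litters, so the spread between them may be technical. The same series holds 2 libraries each of E9.5 PGCs, of female ESCs and of PGCLCs from parthenogenetic ESCs (pESC-PGCLCs), which are used below only for comparison.

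Primordial germ cells are the embryonic precursors of eggs and sperm. After they are specified in the epiblast they lose most of the 5-methylcytosine of their genome while they migrate to and settle in the gonads, a process that also removes parental imprints and the methylation of the inactive X chromosome. Methylation of CpG sites is copied at replication by Dnmt1 with its partner Uhrf1, is newly set by Dnmt3a, Dnmt3b and the cofactor Dnmt3l, and is oxidised by the Tet enzymes. The assay was reduced representation bisulfite sequencing (RRBS), where MspI cuts genomic DNA at CCGG so that CpG-rich fragments are read. Each level is the percentage of CG calls in a feature that were methylated, and differences are in percentage points. The deposited levels came without read counts, so sequencing depth is unknown for all of them.

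The promoters with the largest differences that had a reference sequence are shown here, since most of the individual results below concern them. They are the 250 bases before the transcription start in RefSeq (GRCm38.p6), written in the direction of the gene, with each CpG in capitals. The bases that the authors counted as a promoter are not given in the sources used here, so the levels need not refer to exactly these windows. Hnf4a (chr2:163506607-163506856, plus strand) and C1qtnf3 (chr15:10952082-10952331, plus strand) were higher in ESC-PGCLCs. Ankmy2 (chr12:36156874-36157123, plus strand), Rasgef1a (chr6:118011255-118011504, plus strand), Spsb3 (chr17:24886393-24886642, plus strand) and Nubp2 (chr17:24886351-24886600, minus strand) were lower. The windows of the divergent genes Spsb3 and Nubp2 share 208 bases.
Hnf4a: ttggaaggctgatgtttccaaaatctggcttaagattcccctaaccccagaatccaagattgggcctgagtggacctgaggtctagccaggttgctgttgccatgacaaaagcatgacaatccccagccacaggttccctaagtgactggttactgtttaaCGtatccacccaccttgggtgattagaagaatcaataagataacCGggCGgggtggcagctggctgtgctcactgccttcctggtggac
C1qtnf3: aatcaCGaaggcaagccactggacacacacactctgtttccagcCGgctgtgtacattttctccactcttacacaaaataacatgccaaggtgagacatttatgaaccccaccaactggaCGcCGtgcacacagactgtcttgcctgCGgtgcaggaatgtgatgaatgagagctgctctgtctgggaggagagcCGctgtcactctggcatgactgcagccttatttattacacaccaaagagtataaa
Ankmy2: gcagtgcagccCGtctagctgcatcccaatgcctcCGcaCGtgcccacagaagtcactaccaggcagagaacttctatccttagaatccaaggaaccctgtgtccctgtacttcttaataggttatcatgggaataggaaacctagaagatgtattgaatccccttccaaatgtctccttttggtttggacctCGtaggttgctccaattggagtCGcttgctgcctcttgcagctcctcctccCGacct
Rasgef1a: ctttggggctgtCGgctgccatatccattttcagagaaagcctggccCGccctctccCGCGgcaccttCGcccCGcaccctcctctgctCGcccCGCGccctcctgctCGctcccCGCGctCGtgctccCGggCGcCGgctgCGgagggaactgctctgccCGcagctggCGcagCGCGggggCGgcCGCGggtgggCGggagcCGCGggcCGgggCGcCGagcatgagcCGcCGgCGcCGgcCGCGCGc
Spsb3: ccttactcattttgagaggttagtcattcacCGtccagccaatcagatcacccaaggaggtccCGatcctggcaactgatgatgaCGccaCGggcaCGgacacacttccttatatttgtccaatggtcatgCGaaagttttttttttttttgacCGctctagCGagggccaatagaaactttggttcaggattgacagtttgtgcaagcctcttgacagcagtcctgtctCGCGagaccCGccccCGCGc
Nubp2: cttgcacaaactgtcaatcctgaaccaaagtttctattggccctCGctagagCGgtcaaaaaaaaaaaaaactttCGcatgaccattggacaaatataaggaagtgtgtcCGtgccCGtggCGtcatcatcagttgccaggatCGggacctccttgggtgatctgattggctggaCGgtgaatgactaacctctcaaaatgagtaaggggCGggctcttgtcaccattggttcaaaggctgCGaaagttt

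The windows differed widely in CpG content. Those of Hnf4a, C1qtnf3 and Ankmy2 hold 3, 6 and 6 CpG sites, those of Nubp2 and Spsb3 hold 10 and 13, and that of Rasgef1a holds 37. Within the 250 bases, the MspI site CCGG, which reads the same on both strands, occurs 1 time in Hnf4a, 1 time in C1qtnf3 and 5 times in Rasgef1a, with none in the other windows. In windows of 300 bases around the start, 85.6% of 9839 promoters that could be matched to RefSeq held a CCGG.

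Methylation was higher in ESC-PGCLCs than in E12.5 PGCs across the genome. The mean level over all 138860 features was 30.3% and 30.2% in the ESC-PGCLC libraries and 24.6% and 24.9% in the E12.5 PGC libraries, a difference of 5.50 points or 1.22 times. The nearest libraries of the groups were 5.27 points apart, against an SD between libraries of 0.0852 in ESC-PGCLCs and 0.239 in E12.5 PGCs (n = 2 each). With 2 libraries against 2 the exact two-sided permutation test cannot give a p below 0.333, and it gave 0.333 here and for each feature class.

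The excess followed the kind of feature. Repeats were at 54.5% and 54.6% in ESC-PGCLCs against 44.5% and 45.0% in E12.5 PGCs, 9.81 points higher, and 3' UTRs were 9.78 points higher. Introns differed by 6.43 points, exons by 5.07, promoters by 3.56 and island shores by 3.15. At 5' UTRs, with 6.40% and 6.38% against 5.40% and 5.58%, the difference was 0.900 points. CpG islands, with 6.02% and 6.03% against 5.29% and 5.50%, differed by 0.634 points. As a ratio the classes were closer, from 1.12 times at islands to 1.25 times at 3' UTRs. In none of the 8 classes did the libraries of the groups overlap. With each library centred on the median of its features, an alternative added after seeing the data, repeats, 3' UTRs and introns stayed higher, by 3.81, 3.78 and 0.42 points, and the other 5 classes turned to values between -5.37 and -0.928 points. Centring takes the same number of points off every class, so the smaller differences turn negative.

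**Figure D1:**
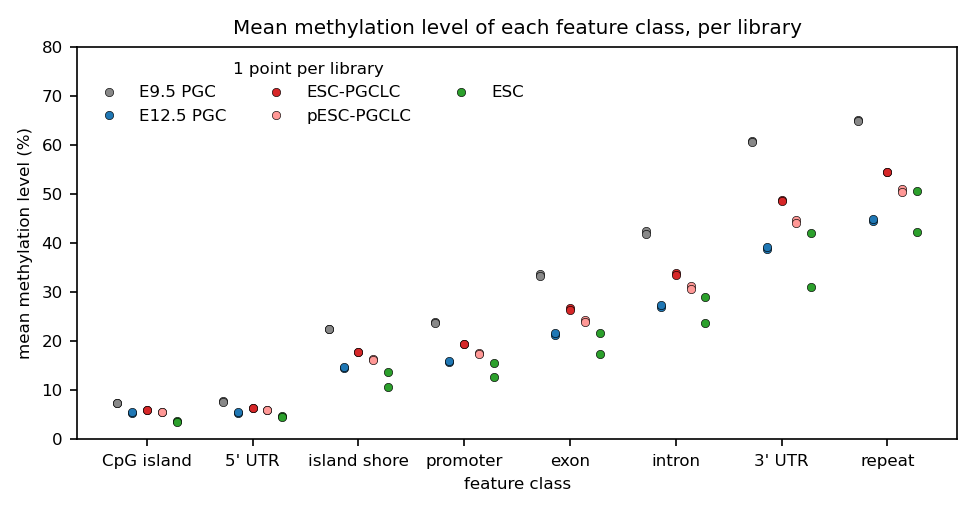
Mean methylation level (%) of each feature class, 1 point per library, with 2 libraries in each of 5 groups. ESC-PGCLCs lie above E12.5 PGCs and below E9.5 PGCs in each class, and the difference is widest at repeats, at 9.81 points. E9.5 PGC, pESC-PGCLC and ESC points are means over the features that also had a level in all libraries of those groups.

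E9.5 PGCs, the earlier stage, gave a scale for this excess. On the scale from the E9.5 to the E12.5 PGC mean, ESC-PGCLCs lay at 56.5% over all features with a level in every one of these groups. This is a position between means and not a course of change, since the cells were made from ESCs, which were at 23.6%. The position was 52.9% at repeats, 56.1% at 3' UTRs, 59.3% at promoters and 70.5% at CpG islands. The ESC-PGCLC libraries taken singly gave between 52.7% and 53.1% at repeats and between 70.2% and 70.7% at islands. Repeats were at 65.1% and islands at 7.35% in E9.5 PGCs.

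Single features were tested with limma on the log2 odds of the level, p-values were adjusted by the Benjamini-Hochberg method across the 138860 features, and features were called at an adjusted p under 0.05 and a difference of at least 10 points. In all, 31294 features (22.5%) were called, 30550 higher in ESC-PGCLCs (22.0%) and 744 lower (0.536%). The split depended on the scale: with the median of each library set to the same value, the calls numbered 7843, of which 75.3% were higher against 97.6% without this centring. A fit of all 12 libraries called 14745 features. On the log2 odds scale the median difference of all features was 0.34. Without a call, both ESC-PGCLC libraries lay above both E12.5 PGC libraries at 56.7% of features and below both at 8.48%.

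Among promoters, 2611 of 18965 were called higher (13.8%) and 97 lower (0.511%). Among repeats 14544 of 38071 were called higher (38.2%), and among CpG islands 274 of 13872 (1.98%). The share of promoters called higher was 0.105% below 10% in the mean of the 4 libraries, 58.3% at 60% to 70% and 39.9% at 70% or more. The median difference was 0.0892 points below 10%, 5.63 points at 20% to 30%, 12.2 points at 60% to 70% and 10.1 points above that.

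**Figure D2:**
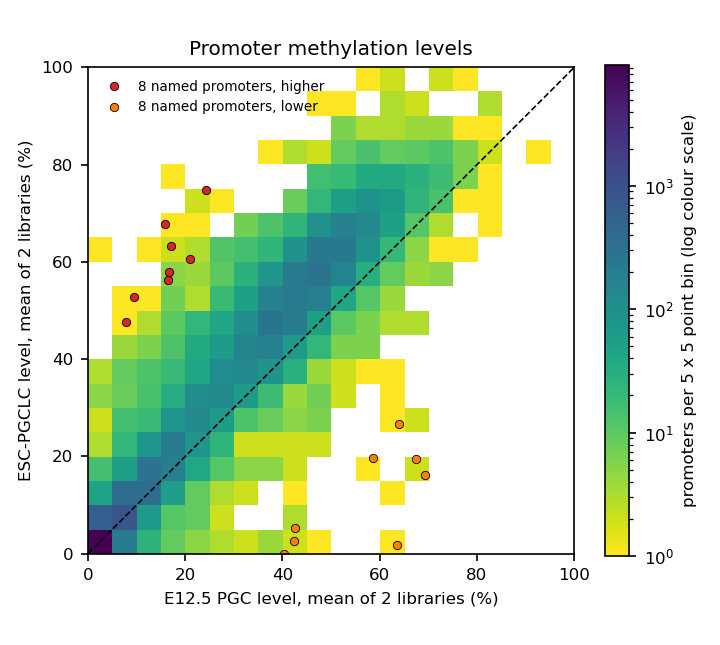
Promoter methylation levels in E12.5 PGCs (horizontal, %) and ESC-PGCLCs (vertical, %), as means of 2 libraries, with the number of promoters per bin of 5 by 5 points on a log colour scale. Most methylated promoters lie above the dashed line of equal levels, and the 8 named promoters called lower in ESC-PGCLCs lie far below it.

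CpG content sorted the promoters in the same way. The 731 promoters with up to 4 CpG sites in the 300 bases around the start were at 37.7% in ESC-PGCLCs and 29.9% in E12.5 PGCs, and 32.6% of them were called higher. The 2386 promoters with 30 or more sites were at 6.18% and 5.33%, and 1.89% of them were called higher.

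At a like level in the compared cells, the excess of ESC-PGCLCs was larger where the starting cell type was more methylated. Features at 40% to 60% in the mean of the 4 libraries were split by their level in female ESCs. Promoters below 10% in ESCs differed by a median of 6.40 points (200 promoters), those at 40% to 50% by 10.5 points (865) and those at 60% or more by 15.7 points (282). The median of repeats was 6.70 points below 10% in ESCs and 13.7 points at 60% or more. That of CpG islands was 6.09 points and 19.9 points, the last over 23 islands. The separate pairs of an ESC-PGCLC and an E12.5 PGC library gave medians from 5.91 to 7.19 points for the first group of promoters and from 15.4 to 16.4 points for the last, so the groups did not overlap.

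The ESC libraries stood apart from each other, with a repeat mean of 50.7% in replicate 1 and 42.2% in replicate 2, so the split was repeated with each alone, an alternative chosen after seeing the data. The promoter medians were then 6.65 and 14.2 points with replicate 1, and 7.06 and 15.6 points with replicate 2. Whether the ESC libraries are the same line that gave the ESC-PGCLCs is not stated in the labels.

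Repeat elements are the part of the genome that silencing by methylation is best known for, and some, such as IAP retrotransposons, are known to keep methylation in germ cells that have lost it elsewhere. The files give repeats by element name and position in the consensus, with no genome position, so a value may pool copies. Of 20 families, 18 differed by between 7.54 and 12.7 points and none had overlapping libraries. IAP long terminal repeats, the promoters of these retrotransposons, were at 71.0% and 70.3% in ESC-PGCLCs against 59.4% and 60.6% in E12.5 PGCs. IAP internal sequences were at 71.2% and 71.2% against 61.0% and 61.2%, the highest levels of any family in ESC-PGCLCs beside the IAP long terminal repeats. MERVL and its promoter MT2, which are known for transcription in the early embryo, were at 53.9% and 53.8% against 42.2% and 43.8%. Ancient L1M elements, which no longer move, had the widest difference of the families, with 54.8% and 54.9% against 41.4% and 43.0%. Among the 337 elements with at least 10 features, Tigger17a, a DNA transposon, had the widest difference, with 57.2% and 61.3% against 38.8% and 41.5% over 10 features. In other families the widest were RLTR42-int among ERVK elements (18.9 points over 10 features) and L1MDa among ancient L1M (18.4 points over 15 features), and ORR1A4 was the lowest of the MaLR elements, at 3.56 points.

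Young L1 elements stood apart. L1MdTf_I and L1MdTf_II, L1 subfamilies with active promoters, were at 58.4% and 58.1% in ESC-PGCLCs and 56.7% and 56.6% in E12.5 PGCs, a difference of 1.59 points over 344 features. L1MdGf_I differed by 2.47 points, with 65.8% and 65.6% against 62.9% and 63.5%. L1MdA_I to L1MdA_III, subfamilies of similar age, differed by 7.54 points, with 60.8% and 61.0% against 53.1% and 53.6%. The difference of L1MdA elements exceeded that of L1MdTf_I and L1MdTf_II by 5.95 points and that of L1MdGf_I by 5.08 points. All 4 libraries took the order of their group in both, and each gave the lowest p that 2 libraries against 2 allow in the exact permutation test, 0.333. Of the L1MdTf_I and L1MdTf_II features, 11.0% were called higher, against 38.2% of all repeats, and 30 of 344 lower, against 0.701% of all repeats. Relative to the library medians (centring, added after seeing the data), L1MdTf_I with L1MdTf_II and L1MdGf_I turned to -4.41 and -3.54 points, and the other 18 families kept their direction, L1MdA at 1.54 points.

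These elements also differed in ESCs, where L1MdTf_I and L1MdTf_II were at 32.0%, L1MdGf_I at 50.9% and L1MdA_I to L1MdA_III at 57.2% (means of 2 libraries). Split by the ESC level at 40% to 60% in the compared cells, features of L1MdTf_I, L1MdTf_II and L1MdGf_I had a median difference of -1.09 points below 30% in ESCs (115 features), 2.07 points at 30% to 50% (52) and 9.93 points at 50% or more (53). L1MdA features gave 1.33 points (30 features), 8.25 points (728) and 10.3 points (387).

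**Figure D3:**
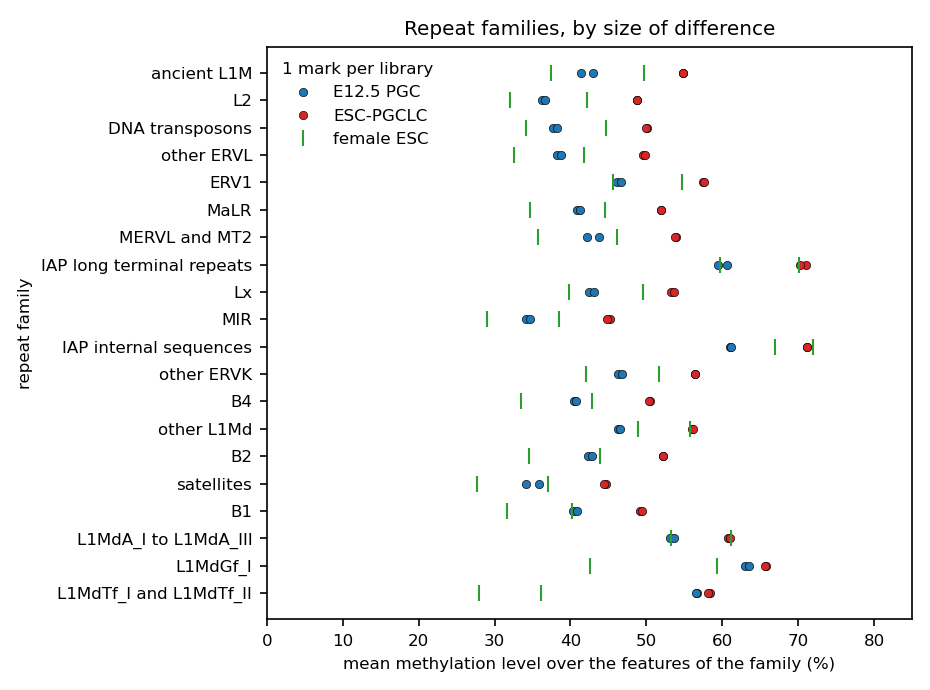
Mean methylation level (%) of 20 repeat families, 1 mark per library, ordered by the difference between ESC-PGCLCs and E12.5 PGCs. The groups are 1.59 points apart at L1MdTf_I and L1MdTf_II and 12.7 points apart at ancient L1M elements, and female ESCs are lowest relative to the other groups at L1MdTf_I and L1MdTf_II.

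The X chromosome was examined because female PGCs reactivate their silent X, whose CpG islands are methylated in somatic cells. The 357 X-linked islands were at 17.4% and 17.8% in ESC-PGCLCs and 16.7% and 17.4% in E12.5 PGCs, a difference of 0.566 points whose nearest libraries were 0.0264 points apart. The 13507 autosomal islands were at 5.70% and 5.70% against 4.96% and 5.17%. On the scale from E9.5 to E12.5 PGCs, X-linked islands lay at 92.8% and autosomal islands at 68.8%. Of the X-linked islands, 11 were called higher (3.08%, against 1.93% of autosomal islands) and 1 lower. In female ESCs X-linked islands were at 4.02%. Centred on the library medians, the X-linked difference turned to -5.44 points.

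Over all islands the X-linked and autosomal differences were thus alike. Most methylated X-linked islands had levels of 10% to 20%, and at that level the difference between the groups was smaller than at autosomal ones, within what 2 libraries against 2 can test. The 255 X-linked islands in that range were at 14.2% and 14.8% in ESC-PGCLCs and 14.6% and 15.2% in E12.5 PGCs, so the groups overlapped. The 156 autosomal islands in the range were at 15.1% and 15.2% against 12.5% and 13.2%, and did not. In this range the X-linked difference was 2.61 points below the autosomal one (exact two-sided permutation p = 0.333, the smallest possible). At 20% to 30%, 20 X-linked islands differed by -0.264 points and 93 autosomal islands by 3.99 points. X-linked promoters, by contrast, differed by 3.86 points, close to the 3.55 points of autosomal promoters.

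Genes of 10 lists were then read at their promoters, 140 of the 203 listed genes having a level. Of these, 7 were called higher (13.8% of all promoters were) and 0 lower. An unadjusted p under 0.05 by limma was found at 41 of the 140, and at 6231 of all 18965 promoters. Without E12.5 PGC replicate 2 the calls numbered 11. The list medians are set beside the median of all promoters, 0.503 points, which includes the many near 0%. Of the 6012 promoters at 20% or more, the median difference was 9.69 points. At that level it was 4.84 points over 14 genes of oocyte-methylated control regions, 5.45 points over 9 germ granule genes and 7.80 points over 11 meiotic genes, and it was 7.58 points over 5 pluripotency genes, 7.42 over 5 genes of the methylation machinery and 10.5 over 4 PGC specification genes. Over the 4 endothelial and blood genes at that level it was -0.548 points, and over H19 and Meg3 3.63 points.

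Imprinted genes, where methylation of a control region on 1 parental copy sets which copy is read, are the classical test of germline erasure. Of genes at control regions methylated in the oocyte, 21 of 30 had a level and none was called (13.8% of all promoters were called higher). Of the 21, 18 were higher in ESC-PGCLCs, as were 13369 of all 18965 promoters, and the median difference was 3.43 points. The mean was 29.1% ± 0.0687 in ESC-PGCLCs and 25.5% ± 1.77 in E12.5 PGCs (SD, n = 2). At Snrpn, a splicing protein gene at the Prader-Willi control region, levels were 48.5% and 56.7% against 41.7% and 48.1% (limma adjusted p = 0.228). Nap1l5 and Inpp5f, each expressed from the paternal copy, were at 47.6% and 44.0% against 32.2% and 41.0%, and at 47.2% and 44.1% against 33.6% and 41.9%. Blcap, host of the imprinted Nnat gene, was at 32.1% and 34.5% against 27.6% and 26.2%. Both groups had levels well above 0% at these 4 promoters.

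At control regions methylated in sperm, 6 of 7 genes had a level and none was called (13.8% of all promoters were called higher). H19, the RNA gene beside the Igf2 control region, was at 56.2% and 57.6% in ESC-PGCLCs and 41.0% and 47.8% in E12.5 PGCs, 12.5 points higher (limma adjusted p = 0.113). Meg3 went the other way, with 32.0% and 30.4% against 36.0% and 36.8% (adjusted p = 0.0622 by limma). Dlk1 and Igf2 lay between 1.53% and 2.85% in all 4 libraries.

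Genes that germ cells are known to switch on upon losing promoter methylation were in part methylated in both groups. The germ granule and piRNA list had 14 of 26 genes with a level, none called (13.8% of all promoters were called higher), and a median difference of 4.51 points. Of the 14, 9 were at 20% or more in the mean of the 4 libraries, while Mybl1, Ddx25, Tdrd5 and Tdrd6 had group means between 1.69% and 8.67%. Dazl, an RNA-binding protein needed for germ cell licensing, was at 47.6% and 47.2% in ESC-PGCLCs and 46.0% and 43.4% in E12.5 PGCs, and Ddx4, the germ cell helicase, at 47.9% and 45.5% against 46.2% and 46.4%. Mael, of the piRNA pathway, was at 46.1% and 52.4% against 43.0% and 42.1%. Asz1, a mitochondrial partner of that pathway, was at 66.5% and 67.9% against 64.7% and 54.0%, and Tex101, a germ cell surface protein, at 74.99% and 73.6% against 69.98% and 61.2%. Tdrd9, a piRNA helicase, cannot be read, since the ESC-PGCLC libraries gave 61.8% and 8.33%. The promoters of the germ cell markers Dazl, Ddx4 and Mael were thus not unmethylated in the libraries labelled E12.5 PGC, nor was that of Dppa3, at 33.7%. Those of the markers Tfap2c and Nanos3 were low, with means of 2.66% and 2.07% in E12.5 PGCs and 2.16% and 5.58% in ESC-PGCLCs. The groups are named here by their labels.

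Meiotic genes, which female germ cells turn on soon after this stage, had 18 of 29 promoters with a level and a median difference of 3.59 points. None of the 18 was called (13.8% of all promoters were called higher). Sycp2 and Sycp1, of the synaptonemal complex, were at 57.3% and 55.9% against 45.3% and 48.0%, and at 56.5% and 53.6% against 43.1% and 48.3%. Both had a limma adjusted p under 0.05, at 0.0125 and 0.0428, but a difference just under 10 points. Meioc, a meiotic RNA regulator, was at 44.1% and 31.0% against 42.4% and 54.6%. Sycp3 was at 12.5% and 90% in the ESC-PGCLC libraries, so it cannot be read either.

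Among PGC specification genes, 10 of 20 had a level and 2, both on the X chromosome, were called higher. Of all promoters 13.8% were called higher, and of X-linked promoters 17.1%. Whether 2 of 10 exceeds these shares was not tested. Rhox9, a homeobox gene of the Rhox cluster, was at 67.4% and 68.3% in ESC-PGCLCs and 54.8% and 52.4% in E12.5 PGCs (limma adjusted p = 0.00425). Rhox6 was at 55.2% and 62.6% against 45.2% and 50.6% (limma adjusted p = 0.0379), and its call was lost when E12.5 PGC replicate 1 or ESC-PGCLC replicate 2 was left out, with differences of 8.25 and 7.33 points. Rhox6 was not called either in the fits of 4 or of 12 libraries, and after centring neither was, at 4.99 points for Rhox6 and 8.23 for Rhox9. Kit, the receptor that guides migrating PGCs, was at 37.0% and 38.7% against 28.7% and 27.0% (adjusted p = 0.102 by limma). Dppa3, a maternal factor that marks PGCs, was at 39.5% and 40.1% against 32.4% and 35.0%, while it had 3.08% in ESCs and 68.5% in E9.5 PGCs.

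Of 22 pluripotency genes 17 had a level, 1 was called higher (5.88%, against 13.8% of all promoters) and the median difference was 0.356 points. Tdh, the threonine dehydrogenase of mouse ESCs, was called higher, at 52.7% and 54.9% in ESC-PGCLCs against 34.4% and 38.5% (limma adjusted p = 0.00453), a call lost after centring (11.3 points). Zfp42, a marker of naive pluripotency, was at 41.1% and 37.4% against 30.7% and 30.9%. Dppa5a was at 56.1% and 61.1% against 50.4% and 51.7%, and Dppa2 at 53.9% and 49.6% against 47.1% and 48.1%. These 4 promoters had between 2.22% and 6.68% in ESCs.

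The methylation machinery had 19 of 21 promoters with a level, 2 called higher (10.5%, against 13.8% of all promoters) and a median difference of 0.268 points. Dnmt3a, a de novo methyltransferase, was called higher, at 31.2% and 32.7% in ESC-PGCLCs against 19.8% and 20.3% (limma adjusted p = 0.00789), but not in the fit of all 12 libraries or after centring (5.93 points). Dnmt3l, its cofactor, was called higher too, at 56.8% and 58.1% against 49.5% and 44.7% (limma adjusted p = 0.0141), and lost the call without E12.5 PGC replicate 2 or ESC-PGCLC replicate 2, with differences of 7.96 and 9.65 points. It was not called in the fits of 4 or of 12 libraries, or after centring (4.33 points). Mbd3, a subunit of the NuRD complex, was at 73.9% and 74.3% against 68.2% and 65.2%. Mbd2, a methyl-CpG binding protein, was lower in ESC-PGCLCs, at 7.83% and 5.94% against 11.2% and 12.7% (limma adjusted p = 0.0126), a difference under 10 points.

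Lists of other cell types were read in the same way. None of 14 gastrulation genes was called, and their differences lay between -1.27 points at Sox3 and 0.605 points at Lefty2, with Fgf8 at -1.12 and Sox17 at -0.561. None of these promoters was at 20% or more, and the list means were 4.34% in ESC-PGCLCs and 4.45% in E12.5 PGCs. Of all promoters below 10% in the mean of the 4 libraries, 0.105% were called higher. Of 14 genes of gonadal somatic cells, 13 were below 10% in E12.5 PGCs and 1 was called higher (7.14%, against 13.8% of all promoters). That was Amhr2, the receptor for the hormone that removes the Müllerian duct, at 80.2% and 78.3% in ESC-PGCLCs against 50.6% and 51.7% (limma adjusted p = 0.00371). Tcf21 was at 6.91% and 16.4% against 4.14% and 3.81%, and Rspo1 and Nr5a1 differed by 1.61 and 0.801 points. Of 7 endothelial and blood genes 1 was called, a share of 14.3% against 13.8% of all promoters. It was Emcn, higher at 53.1% and 49.5% against 37.6% and 41.3% (limma adjusted p = 0.0176), and this call was lost without E12.5 PGC replicate 1 or without ESC-PGCLC replicate 1, at 10.04 and 10.1 points, and after centring (5.91 points). Pecam1 and Cdh5 differed by -4.32 and 3.23 points, and Gata1 gave 55.7% and 0% in the ESC-PGCLC libraries. Over the whole lists, gonadal somatic promoters were at 8.71% and 9.15% in ESC-PGCLCs and 6.06% and 6.19% in E12.5 PGCs, and endothelial and blood promoters at 31.3% and 23.0% against 27.1% and 28.3%. These are means, and the median differences of the lists were 0.214 and 0.239 points, against 0.503 points over all promoters. The part of other cell types in any result was not tested.

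Of the promoters called higher, Hnf4a (chr2:163506808-163572910, plus strand), a transcription factor of liver and gut, was at 58.0% and 57.7% in ESC-PGCLCs and 18.8% and 14.5% in E12.5 PGCs (limma adjusted p = 0.00237). Its 5' UTR, intron and exons were called in the same direction, at 33.0, 25.4 and 18.2 points. Tiam1 (chr16:89787111-90143769, minus strand), an activator of the GTPase Rac, had a promoter at 63.8% and 62.6% against 15.7% and 18.4% (limma adjusted p = 0.00144), while its 5' UTR was at 3.11% and 3.16% against 3.62% and 2.86%.

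C1qtnf3 (chr15:10952332-10980150, plus strand), a secreted C1q-like protein, was at 46.2% and 49.0% against 6.91% and 8.65%, and its intron and its 5' UTR were called higher as well, the exon feature having the same values as the 5' UTR in all 4 libraries. Psd3 (chr8:67689082-68212027, minus strand), an exchange factor for ARF6, was at 55.7% and 57.0% against 19% and 13.9%. C1qtnf3 and Psd3 were at 7.39% and 5.86% in ESCs, in contrast to 61.4% at Hnf4a and 55.9% at Tiam1. E9.5 PGCs were at 60.1% at Hnf4a, 65.9% at Tiam1, 56.4% at C1qtnf3 and 26.9% at Psd3, so that Psd3 alone of these 4 was lower in E9.5 PGCs than in ESC-PGCLCs.

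The other promoters with the widest higher values belonged to RNA genes, a gene model and an antisense gene. Mir6932 (chr11:107637722-107637779, plus strand) was at 60.1% and 75.5% against 2.17% and 29.7%, and its call was lost without ESC-PGCLC replicate 1 (59.6 points) or without ESC-PGCLC replicate 2 (44.2 points), with the 4 compared libraries alone and after centring. AC105304.3 (chr17:9926593-9929767, minus strand) was at 70.9% and 78.7% against 28.4% and 20%. n-R5s61 (chr12:68600970-68601087, plus strand), a copy of the 5S ribosomal RNA gene, was at 49.9% and 55.8% against 8.93% and 9.93%, and its reads may belong to other copies. BC050972 (chr9:66798678-66804359, minus strand) was at 53.7% and 67.3% against 24.6% and 17.3%, and lost its call without E12.5 PGC replicate 2 (35.9 points) or ESC-PGCLC replicate 2 (32.8 points).

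The 97 promoters called lower were led by some nearly free of methylation in ESC-PGCLCs. Ankmy2 (chr12:36157114-36197291, plus strand), an ankyrin repeat protein, was at 0% and 3.47% against 62.8% and 64.3% (limma adjusted p = 0.0149), and 3 of the 4 fits that left out a library did not call it, at differences of -62.5, -61.1 and -60.1 points. With untransformed levels Ankmy2 was not called either (-61.8 points). Rasgef1a (chr6:118011438-118091546, plus strand), a Ras exchange factor, was listed at 0% in each library of ESC-PGCLCs against 45.5% and 35.1% (limma adjusted p = 0.0014). Unc119 (chr11:78343482-78349164, plus strand), a lipid-binding trafficking protein, was at 2.75% and 2.48% against 43.9% and 40.8% (limma adjusted p = 0.0013). Rer1 (chr4:155074110-155086382, minus strand), a Golgi retrieval protein, was at 6.38% and 4.20% against 44.2% and 40.9% (limma adjusted p = 0.00145). Female ESCs were at 26.9% at Rasgef1a, 42.5% at Unc119 and 28.6% at Rer1, and E9.5 PGCs at 57.8%, 58.1% and 53.9%. At Ankmy2 the ESC libraries disagreed, with 9.70% and 38.0%.

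At Unc119, Rasgef1a, Rer1 and Psd3 the 2 kinds of PGCLC also differed from each other, in a contrast that called 124 of 138361 features (0.0896%). Ankmy2 differed by -65.4 points, ESC-PGCLCs minus pESC-PGCLCs, without a call (limma adjusted p = 0.133), with 72.5% and 61.8% in pESC-PGCLCs. The differences between groups at the lower promoters were not shared by the neighbouring 5' ends. The 5' UTRs of Ankmy2, Rasgef1a, Unc119 and Rer1 lay between 1.05% and 2.44% in all 4 libraries, so the promoter levels of E12.5 PGCs stood far above those of the adjoining transcript. At Unc119 the exons and 3' UTR were higher in ESC-PGCLCs, by 17.8 and 22.7 points, and the intron lower, with a difference of -15.5 points.

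Of the other lower promoters, Ccdc124 (chr8:70868227-70873935, minus strand) was at 18.3% and 21.2% against 57.5% and 59.6% (limma adjusted p = 0.00202). Spsb3 (chr17:24886643-24892152, plus strand) and Nubp2 (chr17:24882611-24886349, minus strand) face each other across the shared sequence shown above and are not separate results. They were at 2.98% and 29.2% against 74.3% and 64.3%, and at 3.73% and 35.0% against 74.3% and 60.7%. Both lost their calls without either E12.5 PGC library or ESC-PGCLC replicate 1, with differences between -58.2 and -32.5 points. With the replicate number as a block, or with the 4 compared libraries alone, they lost them too, at -53.2 and -48.1 points. Nubp2 was not called either with an offset of 0.001 in the log2 odds (-48.1 points) or after centring (-54.1 points). Arntl2 (chr6:146796055-146833529, plus strand), a clock transcription factor, was at 24.6% and 28.6% against 77.8% and 50%, and lost its call when either ESC-PGCLC library was left out (-35.3 and -39.3 points), in the fits of 4 or of 12 libraries and with untransformed levels. Its 3' UTR was called lower too, at 20.8% and 21.5% against 83.3% and 54.2%. In female ESCs the promoters of Ccdc124, Spsb3 and Nubp2 were at 14.1%, 4.03% and 5.01%, and that of Arntl2 at 44.1%.

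**Figure D4:**
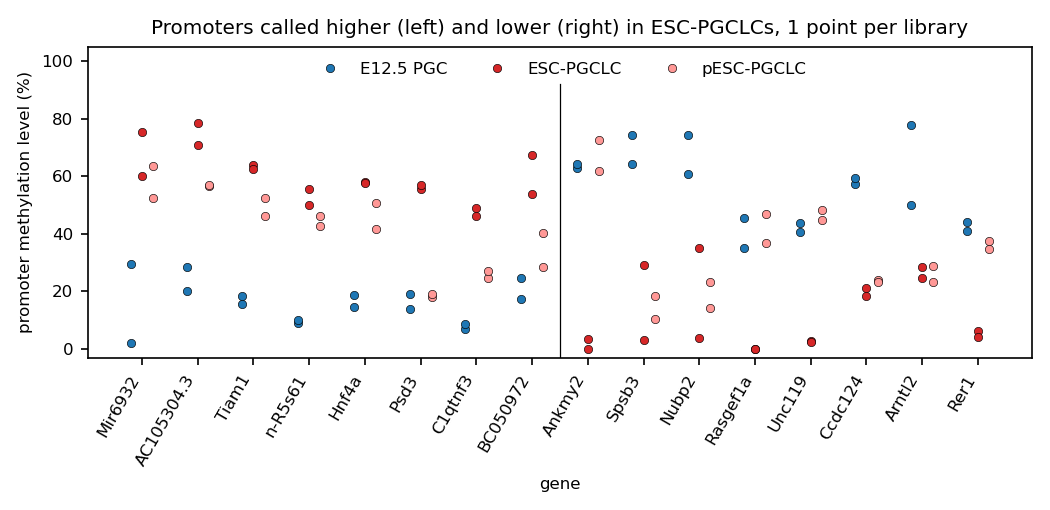
Methylation level (%) of the 16 named promoters with the largest called differences, 1 point per library of ESC-PGCLCs, pESC-PGCLCs and E12.5 PGCs, with those higher in ESC-PGCLCs left of the line and those lower right of it. At Rasgef1a, Unc119 and Rer1 both pESC-PGCLC libraries lie between 34.8% and 48.2%, near E12.5 PGCs, whereas ESC-PGCLCs are at 6.38% or less.

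CpG islands with the largest higher values lay mostly inside genes. The widest was an intronic island of Spata5 (chr3:37481328-37481728), at 83.0% and 81.7% in ESC-PGCLCs and 25.8% and 38.1% in E12.5 PGCs (limma adjusted p = 0.00621). An island in a coding exon of Disp1 (chr1:183088463-183089219), which releases Hedgehog proteins from cells, was at 88.1% and 94.7% against 38.3% and 49.8%. Coding-exon islands of Pitpnm2 (chr5:124123525-124123735) and Rbm15b (chr9:106885070-106885275, also within an intron of Manf) were at 59.5% and 60.4% against 26.8% and 25.0%, and at 44.9% and 45.2% against 11.6% and 14.7%. An island in an intron of the gene model Gm20388 (chr8:121468777-121469029) was at 63.8% and 65.5% against 27.2% and 28.3%.

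The other 3 islands that were higher lay in processed pseudogenes, whose reads can be shared with the parent genes. They were in Ppp1r2-ps4 (chr9:66805822-66806225), which is upstream of BC050972 and has the same values as its promoter, in Rpl7a-ps12 (chrX:152909951-152910194), at 89.6% and 90.1% against 52.0% and 63.6%, and in Tpt1-ps3 (chr6:99878148-99878434), at 68.0% and 68.1% against 37.0% and 42.2%.

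Only 11 islands were called lower, and 8 are named. The widest differences were at the pseudogene Gm13736 (chr2:87526008-87526220), at 3.89% and 6.71% in ESC-PGCLCs against 27.2% and 25.0%, and in a coding exon of Lrp8 (chr4:107846211-107846613), a reelin receptor, at 12.1% and 17.0% against 36.3% and 33.9%. Coding-exon islands of Zscan2 (chr7:80875741-80876111), Cherp (chr8:72461979-72462347) and Cldn14 (chr16:93919530-93919755), the last a tight junction protein, differed by -14.2, -14.6 and -14.5 points. A coding-exon island of Setbp1, one upstream of Mrto4-ps2 (chr12:21778297-21779153) and one at Ppp1r2-ps2 in an intron of Iqsec1 (chr6:90905568-90905941) differed by -16.1, -16.0 and -13.0 points. The calls at Setbp1, Cldn14 and Ppp1r2-ps2 were each lost when at least 2 of the 4 libraries were left out in turn, at differences between -17.7 and -9.77 points. The islands at Gm13736, Lrp8, Zscan2 and Mrto4-ps2 had between 1.47% and 3.94% in female ESCs.

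At the other end, 5 promoters at 30% to 70% in all 4 libraries hardly differed. Arpc1b, a subunit of the actin-nucleating Arp2/3 complex, was at 44.0% and 40.4% in ESC-PGCLCs and 44.0% and 40.3% in E12.5 PGCs. Heatr9, Olfr718-ps1, Ighv6-6 and BC051077 likewise had differences of -0.0738 to 0.0244 points, with SDs of up to 10.1 points between libraries, so a difference of several points could not have been detected at some of them. In E9.5 PGCs the 4 of these 5 with a level were at between 51.9% and 77.4%.

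Features that were nearly free of methylation in 1 group and methylated in the other were rare in both directions. There were 107 features below 5% in ESC-PGCLCs and above 20% in E12.5 PGCs, 18 of them promoters, and 113 of the reverse kind, 13 of them promoters. The first kind had a median of 27.3% in ESCs and 41.4% in E9.5 PGCs. The second kind had a median of 39.8% in ESCs and 14.3% in E9.5 PGCs.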

How the data were processed

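DNA was digested with MspI and bisulfite-treated RRBS libraries were sequenced. Per the labels and the study's methods, the authors aligned reads to mm10 with Bismark 0.16.3 and Bowtie2, kept unique best alignments and corrected levels for the bisulfite non-conversion rate. The deposited values are fractions of methylated CG calls per feature, printed here as percentages. No read counts were used and the authors' coverage minimum and promoter definition are not given in the sources used here, so no depth, interval or floor is stated. All 14559 islands started and ended on CG in GRCm38 (starts counted from 0 in the files, from 1 here), and 30060 of 30073 gene identifiers matched GENCODE M21.

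Levels were tested with limma 3.58.1 (R 4.3.3) on log2((level + 0.01) / (1 - level + 0.01)) in 1 fit of the 8 PGC and PGCLC libraries, over features with a level in the 4 compared libraries. Calls needed an adjusted p under 0.05 and 10 points. On simulated data of 20000 features for this comparison, 178 of 200 shifts of 2 on the log2 odds scale were recovered with 6 false calls, and 195 of 200 shifts of 4 with 5. The shifted features were at middle levels and the rest had no difference between groups. In the real data 22.5% of features were called, so these counts give no error rate for the real calls. Means over features were compared by exact two-sided permutation (scipy 1.17.1), with plots from matplotlib 3.10.9.

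The comparison, gene lists and repeat families were chosen with earlier results of these data known. Named were the 8 called promoters and 8 called islands with the largest difference in each direction (predicted genes and pseudogenes left out of promoters), the 4 list promoters with the largest difference, the repeat families, and the 5 promoters at 30% to 70% that differed least. Dazl, Ddx4, Tfap2c, Nanos3 and Cdh5 were named as cell type markers. Sequences were read from RefSeq promoters whose start lay within 500 bases of the GENCODE gene start.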

Additional observations from a re-analysis of the deposited data

Results flagged for a closer look

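Among the named promoters, 4 differed between the 2 kinds of PGCLC, ESC-PGCLCs and pESC-PGCLCs, by limma on that contrast itself, which called 124 of 138361 features (adjusted p under 0.05 and 10 points). ESC-PGCLCs were lower by -43.94 points at Unc119 (adjusted p = 0.00531 by limma), by -42.0 points at Rasgef1a (0.00637) and by -30.83 points at Rer1 (0.0151). They were higher by 37.68 points at Psd3 (0.0477). In the pESC-PGCLC libraries the levels were 44.9% and 48.2% at Unc119, 47.0% and 37.0% at Rasgef1a, 37.4% and 34.8% at Rer1 and 18.2% and 19.2% at Psd3. Ankmy2 differed by -65.4 points, the widest difference of the 16 named promoters, but it was not called (adjusted p = 0.133 by limma). The promoters were named for their difference from E12.5 PGCs, not from pESC-PGCLCs, but both contrasts use the same ESC-PGCLC libraries. Groups of 2 libraries were too small to look for single outlying samples.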

How the results depend on the processing

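The mean differences of the 8 classes and 20 repeat families kept their direction as medians over features, with 1 library left out and, for the classes, over features with a level in all 12 libraries. Centring on the library medians, added after seeing the data, turned the mean over all features to -0.502 points, islands to -5.37, shores to -2.85, promoters to -2.44, 5' UTRs to -5.10, exons to -0.928, L1MdTf_I and L1MdTf_II to -4.41, L1MdGf_I to -3.54 and X-linked islands to -5.44 points. The count of called features was 31294, and 26144 with the 4 compared libraries alone, 14745 in the fit of all 12 libraries, 7843 after centring, 5410 with a minimum of 20 points and 48583 with none, against 24966 to 28024 when 1 library was left out in turn. The 7 calls among listed genes became 4, 3, 1 and 19 under the 12-library fit, centring, the minimum of 20 points and none, and 7 to 11 with 1 library left out. The difference at X-linked islands turned to -0.141 points as the median over islands in each library. Centring takes the same amount off every difference, so those smaller than that amount turn negative. The cause of the other changes was not tested, beyond the thresholds themselves.

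The replicate numbers come with no shared origin, and the deviations of same-numbered libraries from their group means had a correlation of -0.0232. With the replicate number as a block 30675 features were called, and 2 of the named calls, Spsb3 and Nubp2, were lost. The paired difference over all features, which equals the unpaired one by construction, was 5.50 points with an SD of 0.324 (n = 2).

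After centring, the direction turned on the log2 odds scale at these promoters, given with their centred difference in points: Heatr9 (-5.98), Arpc1b (-5.94), BC051077 (-6.08), Snrpn (1.67), Blcap (0.429), Dlk1 (-5.42), Igf2 (-5.55), Mael (0.651), Dazl (-3.30), Dppa3 (0.148), Dppa5a (1.58), Dppa2 (-1.86), Lefty2 (-5.40), Rspo1 (-4.39), Nr5a1 (-5.20), Ddx4 (-5.55), Cdh5 (-2.77). At Tdrd9 (5.91 points) the sign of the tested difference turned with an offset of 0.1 and with untransformed levels, and at BC051077 (-0.0738 points) with untransformed levels. Leaving out 1 library turned the direction at promoters whose libraries disagree or whose groups hardly differ, with these ranges in points: Heatr9 (-3.60 to 3.65), Olfr718-ps1 (-0.950 to 0.895), Ighv6-6 (-3.94 to 3.87), Arpc1b (-1.78 to 1.91), BC051077 (-7.25 to 7.10), Tdrd9 (-20.8 to 32.7), Sycp3 (-24.8 to 52.7), Sox3 (-2.71 to 0.168), Lefty2 (-0.826 to 2.04), Gata1 (-44.4 to 11.3), Ddx4 (-0.748 to 1.66). No read depth accompanied the levels, so the precision of a single feature rests on its 2 libraries alone.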
